A study of Mus musculus with 12 samples.

Results

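Receptors and bridging ligands of efferocytosis, the engulfment of dying cells by phagocytes, were followed in cultured macrophages as a set of 9 genes. They were Mertk, Axl, Tyro3, Gas6, Pros1, Mfge8, Timd4, Trem2 and Tyrobp, taken by gene symbol from a table of 55335 mouse genes, in which each symbol stood once. The set was chosen with earlier results of these data known. RNA was sequenced from 12 libraries of bone marrow-derived macrophages (BMDMs), macrophages grown from mouse marrow with macrophage colony-stimulating factor, in 4 groups of 3. The groups were C57BL/6 wild-type mice and Nlrp3-/- mice, each as a control and with LPS+ATP, and the Nlrp3-/- mice lacked the gene in all cells rather than in macrophages alone. The methods give mice aged 8 weeks, 7 days of culture, and lipopolysaccharide (LPS) at 200 ng/ml for 12 hours followed by ATP at 3 mM for 2 hours, whereas the labels give 4 hours of LPS and 30 minutes of ATP. LPS primes the NLRP3 inflammasome, the complex that activates caspase-1, and ATP then triggers it, so the design asks how macrophages with and without this complex respond to its stimulus. It was not stated whether the 3 libraries of a group came from separate mice or cultures, so the p-values below measure the spread between libraries, which may be technical.

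A dying cell displays phosphatidylserine on its outer surface, and phagocytes recognise this lipid either directly or through a soluble bridge. The receptor tyrosine kinases Tyro3, Axl and Mertk, together called TAM receptors, bind Gas6, and Tyro3 and Mertk also bind protein S (the product of Pros1). Both ligands attach to the lipid, whereas Mfge8 ties the lipid to integrins and Timd4 binds it without a bridge. Trem2 binds lipids and lipoproteins and signals through the adaptor encoded by Tyrobp. In macrophages, Mertk is known as a receptor of quiescent cells and Axl as one induced by inflammatory stimuli.

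The sequences upstream of 4 of these genes are shown because Gas6 and Trem2 had the largest falls with LPS+ATP, and because Axl and Mertk, receptors of 1 family, moved in opposite directions. Each is the 250 bases before the RefSeq start site on GRCm38.p6, read on the strand of the gene. They lie at chr8:13494536-13494785 on the minus strand for Gas6, chr17:48346151-48346400 on the plus strand for Trem2, chr7:25788734-25788983 on the minus strand for Axl and chr2:128698665-128698914 on the plus strand for Mertk. Capitals mark every match, on either strand, to a GC box (GGGCGG, reverse CCGCCC), a PU.1 core (GAGGAA, reverse TTCCTC) or an AP-1 site (TGANTCA).
Gas6: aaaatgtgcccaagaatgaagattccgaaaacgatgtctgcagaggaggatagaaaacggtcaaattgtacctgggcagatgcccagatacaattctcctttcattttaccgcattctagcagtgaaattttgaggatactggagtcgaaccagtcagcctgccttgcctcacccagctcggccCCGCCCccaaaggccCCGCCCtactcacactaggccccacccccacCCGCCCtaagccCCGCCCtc
Trem2: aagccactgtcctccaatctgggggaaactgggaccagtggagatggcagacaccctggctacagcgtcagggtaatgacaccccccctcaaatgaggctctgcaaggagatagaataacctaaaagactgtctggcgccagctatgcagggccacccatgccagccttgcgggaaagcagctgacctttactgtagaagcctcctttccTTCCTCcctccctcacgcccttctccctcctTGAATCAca
Axl: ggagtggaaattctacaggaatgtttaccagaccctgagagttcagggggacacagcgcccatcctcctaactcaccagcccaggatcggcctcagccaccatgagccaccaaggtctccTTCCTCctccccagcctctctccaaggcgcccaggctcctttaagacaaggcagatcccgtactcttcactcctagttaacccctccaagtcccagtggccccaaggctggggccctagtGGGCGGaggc
Mertk: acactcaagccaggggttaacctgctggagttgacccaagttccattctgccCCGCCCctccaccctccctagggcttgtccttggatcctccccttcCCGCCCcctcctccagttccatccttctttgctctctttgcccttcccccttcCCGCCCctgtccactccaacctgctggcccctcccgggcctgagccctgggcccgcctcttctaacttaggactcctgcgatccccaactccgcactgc
The Gas6 window held 4 GC boxes and the Mertk window 3, and neither held a PU.1 core or an AP-1 site. The Trem2 window held 1 PU.1 core and 1 AP-1 site and 0 GC boxes, and the Axl window held 1 PU.1 core and 1 GC box. Of 32851 promoter windows of the same length, 32.7% held a GC box, 23.3% a PU.1 core and 6.75% an AP-1 site, and the marked matches did not overlap each other. Windows were at hand for 8 of the 9 genes, all but Tyrobp. Across the 8, an E-box (CACGTG, in 6.02% of all windows), a cAMP response element (TGACGTCA, 1.55%) and an interferon-stimulated response element core (2.98%) had 0 matches, and an NF-kB site (7.25%) was matched only in the Tyro3 window. A match is a run of letters and not a measured binding site.

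Levels are in FPKM (fragment counts divided by gene length and by the size of the library), so that genes can be compared within a library. The FPKM total per library was 283278 to 299393. The number of reads cannot be had from this unit, but relative depth, taken from the spacing of the lowest values, was 1.0 to 1.218. Nlrp3 itself was 9.24, 9.71 and 10.1 FPKM in wild-type control and 32.1, 33.0 and 33.6 FPKM with LPS+ATP, and it was listed at 0 in all 6 Nlrp3-/- libraries. Donor sex also changed with genotype, with Xist from 32.8 to 56.3 FPKM in Nlrp3-/- libraries and at most 0.0416 FPKM in wild-type libraries. Nnt, which is known to differ between C57BL/6 substrains, was 4.09 to 10.3 FPKM in wild-type and 0.67 to 1.47 FPKM in Nlrp3-/- libraries. In every genotype comparison below, loss of Nlrp3, sex and genetic background cannot be told apart.

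In wild-type control BMDMs, Tyrobp was the most abundant of the 9 transcripts at 536 ± 50.6 FPKM (SD, n = 3), followed by Gas6, Trem2, Mfge8, Mertk, Axl, Pros1, Timd4 and Tyro3, and the libraries of no 2 neighbours in this order overlapped. Tyrobp ranked 51st and Gas6 99th by mean FPKM among the 12622 genes with at least 1 FPKM in at least 3 libraries. With LPS+ATP, Tyrobp stayed first, Axl moved up to the second place, and Gas6 dropped to a rank of 3198 among all tested genes. Mertk and Trem2, next to each other after stimulation, overlapped in both genotypes. Nlrp3-/- control BMDMs kept the order Tyrobp, Gas6, Trem2, but Axl stood above Mfge8 and Mertk. In Nlrp3-/- BMDMs with LPS+ATP, Pros1 and Gas6 also overlapped. Tyro3 was last in every group and, with no more than 1.12 FPKM in any library, was the 1 gene of the 9 that did not pass the filter on low values.

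**Figure D1:**
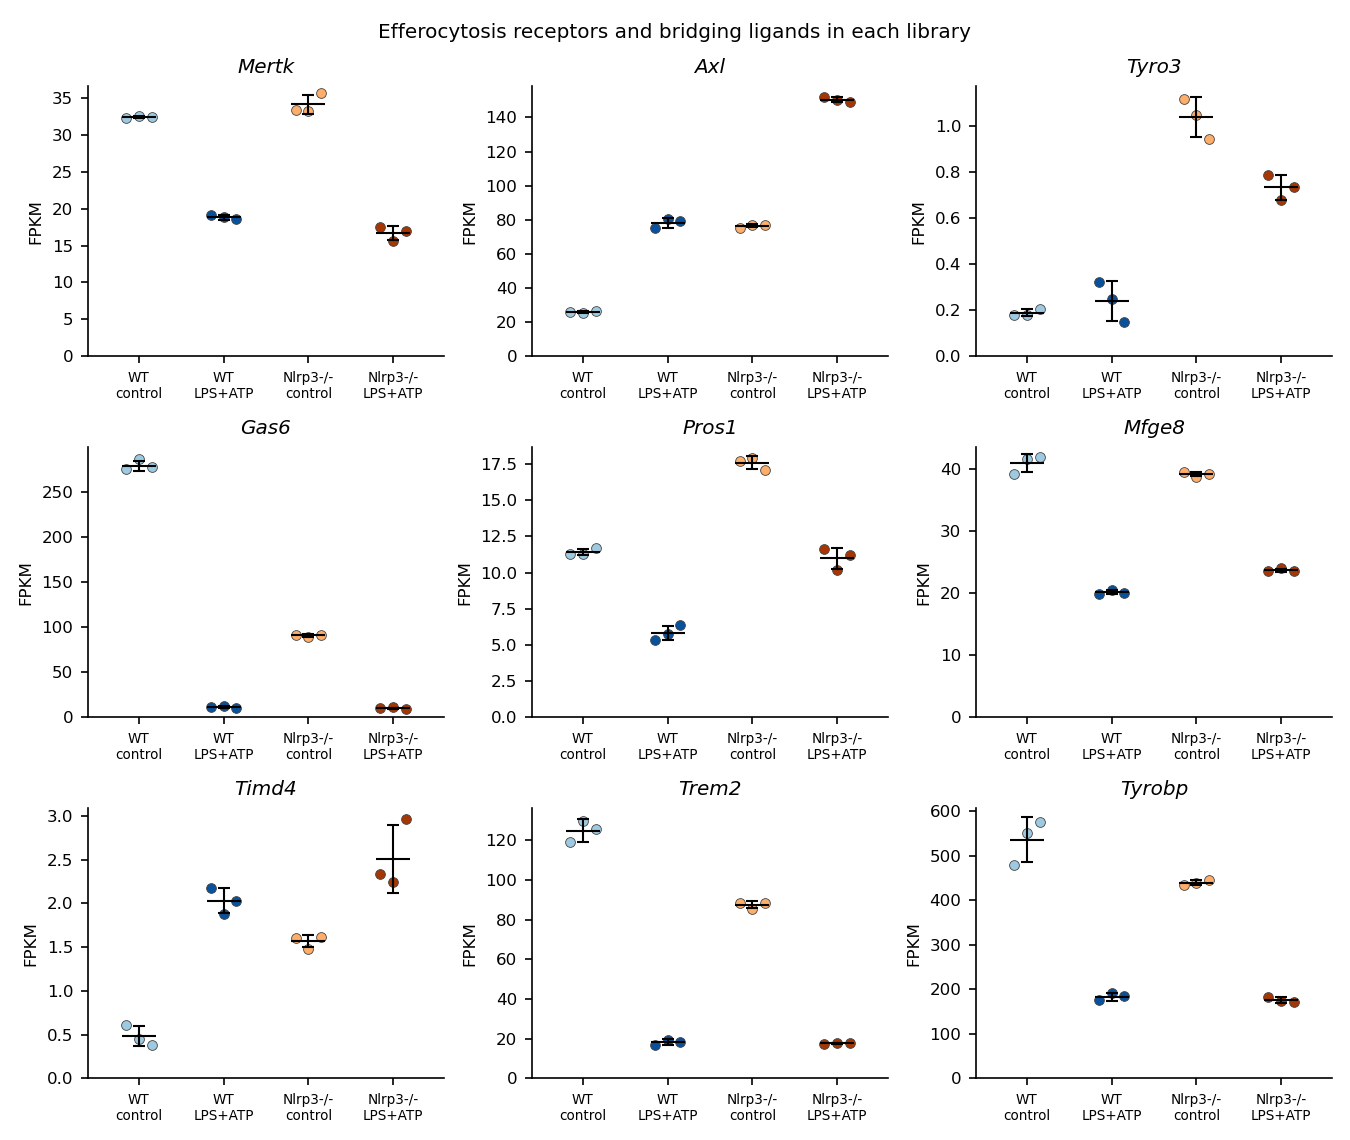
FPKM of each of the 9 genes (vertical axes from 0, a separate scale for each gene) in the 4 groups on the horizontal axes. Points are the 3 libraries of a group, and the horizontal line and bars give the mean and SD. Gas6 sits between 275 and 286 FPKM in wild-type control and at 12.1 FPKM or less in every stimulated library, whereas Axl is lowest in wild-type control and between 149 and 152 FPKM in stimulated Nlrp3-/- libraries.

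LPS+ATP lowered 6 of the 8 tested genes in wild-type BMDMs (Gas6, Trem2, Tyrobp, Mfge8, Pros1 and Mertk) and raised Axl and Timd4, and the directions were the same 8 in Nlrp3-/- BMDMs. Tests were made by limma on log2(FPKM + 1) in 1 fit of the 4 groups, with Benjamini-Hochberg adjustment over all 12622 tested genes. Fold changes on this scale understate the change of genes with low FPKM. Genes passed at an adjusted p under 0.05, and a differentially expressed gene (DEG) also changed by 1 or more on the log2 scale. Among all tested genes, 53.1% passed as lower and 23.3% as higher in wild-type BMDMs, and 53.8% and 20.6% did in Nlrp3-/- BMDMs. By the DEG criteria, 2 of the 8 genes were higher (Axl and Timd4) and 3 lower (Gas6, Trem2 and Tyrobp) in wild-type BMDMs, against 8.25% and 11.2% of all tested genes. The same 3 were lower and 0 higher in Nlrp3-/- BMDMs, against 8.21% and 6.64% of all tested genes. Axl was just short of the fold limit there at 0.97 and met it under TPM (1.04), upper-quartile (1.09) and median-ratio (1.26) scaling, which made 1 higher. Mertk was also just short there at -0.99 and met the limit with 0.1 in place of 1 added to FPKM (-1.03). It also met the limit in some fits with 1 library left out, such as without Nlrp3-/- LPS+ATP replicate 1 (-1.02). In wild-type BMDMs, Mfge8 was at -0.99 and met it with 0.1 added (-1.02) and in some fits with 1 library left out, such as without wild-type control replicate 1 (-1.02). Timd4 dropped below the limit in wild-type BMDMs without wild-type control replicate 3 (0.98) and without wild-type LPS+ATP replicate 1 (1.00 after rounding). Over all alternatives, the DEGs among the 8 numbered 4 to 6 in wild-type and 3 to 4 in Nlrp3-/- BMDMs. The median log2 fold change of the 8 was -0.93 in wild-type and -0.84 in Nlrp3-/- BMDMs, beside -0.25 and -0.24 for all tested genes. Median-ratio scaling moved the median of all tested genes up by 0.25 and 0.23 for these comparisons, and under it all 8 genes still passed in the same directions. In bulk RNA, a smaller number of cells that make a transcript and less transcript per cell cannot be told apart.

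**Figure D2:**
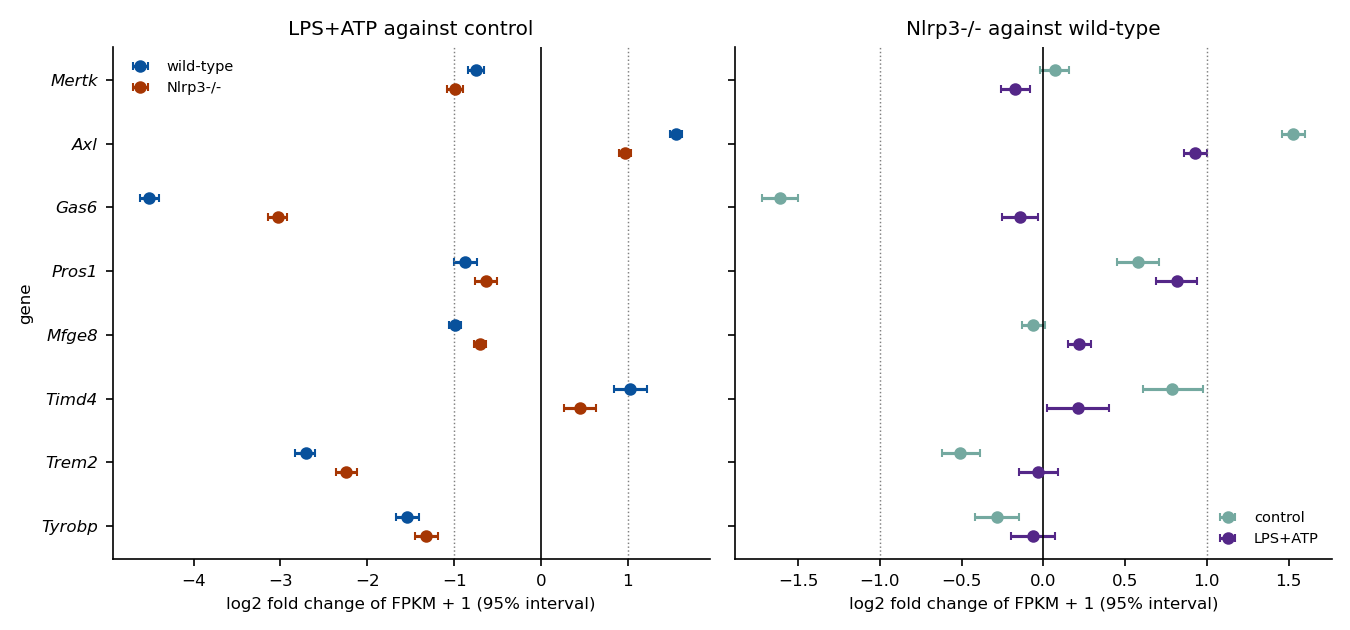
Log2 fold change of FPKM + 1 with its 95% interval (horizontal axes) for the 8 tested genes (vertical axis), for LPS+ATP against control in each genotype on the left and for Nlrp3-/- against wild-type in each condition on the right. Dotted lines mark a log2 fold change of 1 in either direction. Gas6 lies farthest to the left at -4.51 in wild-type and -3.03 in Nlrp3-/- BMDMs, and on the right its genotype difference is -1.61 in control and -0.14 with LPS+ATP.

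Among the TAM receptors, Mertk fell and Axl rose with stimulation. Mertk, the receptor kinase of quiescent macrophages, was 32.2, 32.5 and 32.4 FPKM in wild-type control and 19.2, 18.8 and 18.6 FPKM in wild-type LPS+ATP libraries. In Nlrp3-/- libraries it was 33.4, 33.2 and 35.6 FPKM in control and 17.5, 15.6 and 16.9 FPKM with LPS+ATP. The stimulated libraries of either genotype lay below all control libraries. The log2 fold change was -0.75 ± 0.04 (SE) in wild-type (1.72-fold lower, adjusted p = 1.916e-08 by limma) and -0.99 ± 0.04 in Nlrp3-/- BMDMs (2.04-fold lower, adjusted p = 2.246e-09 by limma). The fall was larger in Nlrp3-/- BMDMs, with an interaction of genotype and stimulation of -0.24 (adjusted p = 0.012 by limma). The wild-type fall was -0.43 on the log2 scale after median-ratio scaling. Between genotypes, Mertk differed in control by 0.07 (95% interval -0.02 to 0.16, adjusted p = 0.196 by limma), which turned to -0.08 under median-ratio scaling, and with LPS+ATP it was lower in Nlrp3-/- BMDMs by -0.17 (adjusted p = 0.00632 by limma), or -0.35 under that scaling.

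Axl, the TAM kinase that binds Gas6, was 26.1, 25.2 and 26.3 FPKM in wild-type control libraries and 75.1, 80.5 and 79.3 FPKM after LPS+ATP. Its values in Nlrp3-/- libraries were 75.4, 76.8 and 77.2 FPKM in control and 152, 150.2 and 149 FPKM after LPS+ATP. Unstimulated Nlrp3-/- libraries thus overlapped stimulated wild-type libraries. Stimulation raised Axl 3.03-fold in wild-type (log2 fold change 1.56 ± 0.03, adjusted p = 2.412e-12 by limma) and 1.97-fold in Nlrp3-/- BMDMs (0.97 ± 0.03, adjusted p = 1.88e-10 by limma). In Nlrp3-/- BMDMs Axl was 2.96-fold higher than in wild-type BMDMs in control (1.53 ± 0.03, adjusted p = 2.262e-11 by limma) and 1.92-fold higher with LPS+ATP (0.93 ± 0.03, adjusted p = 1.394e-09 by limma). The interaction was -0.59 ± 0.04 (adjusted p = 3.996e-06 by limma), so the rise with stimulation was smaller on the log2 scale in Nlrp3-/- BMDMs.

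Tyro3, the third TAM kinase, was 0.181, 0.181 and 0.207 FPKM in wild-type control libraries, 0.325, 0.25 and 0.15 FPKM in wild-type LPS+ATP, 1.12, 1.05 and 0.946 FPKM in Nlrp3-/- control and 0.789, 0.681 and 0.736 FPKM in Nlrp3-/- LPS+ATP. Every Nlrp3-/- library was above every wild-type library, at levels of 1.12 FPKM or less. In a fit without the filter on low values, the log2 difference between genotypes was 0.78 in control (adjusted p = 5.767e-06 by limma) and 0.48 with LPS+ATP (adjusted p = 0.00021 by limma). Stimulation gave 0.06 in wild-type (adjusted p = 0.539 by limma) and -0.23 in Nlrp3-/- BMDMs (adjusted p = 0.0115 by limma).

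The ratio of Axl to Mertk within a library separated all 4 groups. Mertk and Axl moved apart with stimulation, whereas between genotypes in control Axl differed and Mertk did not pass. FPKM of Axl over that of Mertk was 0.8 ± 0.021 (SD, n = 3) in wild-type control and 4.16 ± 0.21 (SD, n = 3) in wild-type LPS+ATP. It was 2.25 ± 0.0711 (SD, n = 3) in Nlrp3-/- control and 9.05 ± 0.49 (SD, n = 3) in Nlrp3-/- LPS+ATP. Mertk was thus the more abundant of the pair only in wild-type control BMDMs.

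**Figure D3:**
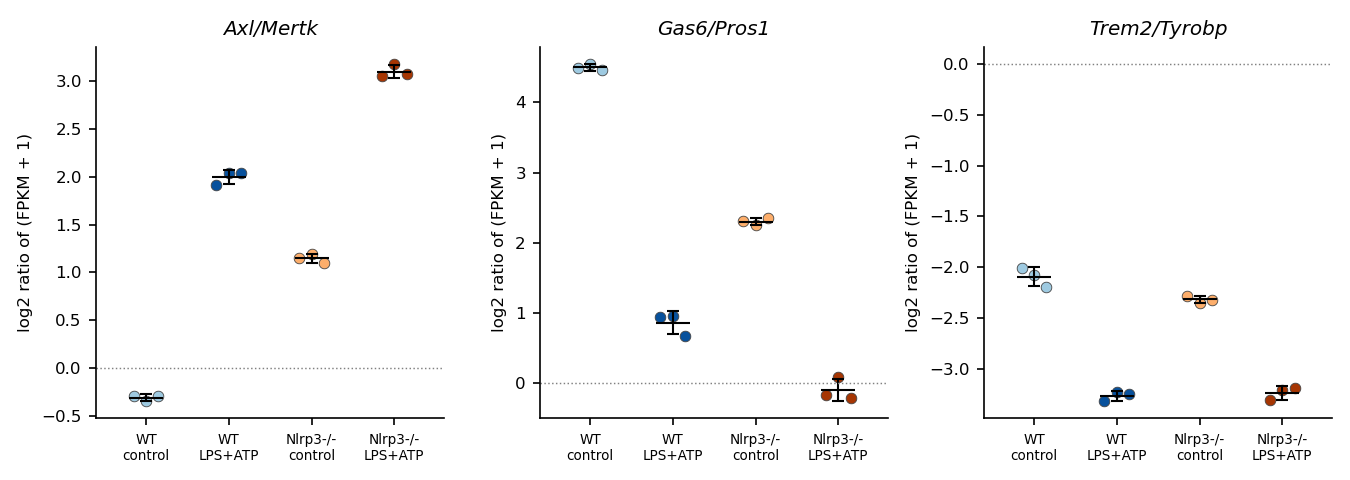
Log2 ratio of FPKM + 1 within each library (vertical axes) for Axl over Mertk, Gas6 over Pros1 and Trem2 over Tyrobp in the 4 groups. Points are the 3 libraries of a group, the line and bars give the mean and SD, and the dotted line marks equal levels. The mean Axl over Mertk ratio goes from -0.31 in wild-type control to 3.10 in stimulated Nlrp3-/- BMDMs, and the Gas6 over Pros1 ratio from 4.50 to -0.09.

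Gas6, the bridging ligand shared by the TAM receptors, had the largest change of the 9 genes. It was 275, 286 and 278 FPKM in wild-type control and 11.3, 12.1 and 10.7 FPKM in wild-type LPS+ATP libraries. In Nlrp3-/- libraries it was 91.7, 89.2 and 91.4 FPKM in control and 10.2, 10.9 and 9.54 FPKM with LPS+ATP. The 3 levels were wild-type control, Nlrp3-/- control, and the stimulated libraries, in which the genotypes overlapped. Stimulation lowered Gas6 24.6-fold in wild-type (log2 fold change -4.51 ± 0.05, adjusted p = 2.078e-14 by limma) and 8.87-fold in Nlrp3-/- BMDMs (-3.03 ± 0.05, adjusted p = 6.387e-13 by limma). In control, Gas6 was 3.08-fold lower in Nlrp3-/- than in wild-type BMDMs (-1.61 ± 0.05, adjusted p = 4.835e-10 by limma). With LPS+ATP the genotype difference was -0.14 (adjusted p = 0.0404 by limma), a call lost in 12 of 21 alternative analyses, among them without wild-type LPS+ATP replicate 2 (-0.09, adjusted p = 0.152 by limma) and without Nlrp3-/- LPS+ATP replicate 3 (-0.09, adjusted p = 0.153 by limma). The interaction was 1.47 ± 0.07 (adjusted p = 1.787e-07 by limma), the only one of the 8 that reached the size of a DEG. Gas6 shares exon bases with Tmem255b on the opposite strand, which had at most 0.132 FPKM in any library.

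Pros1, which encodes the other TAM ligand, also fell with stimulation, but it was higher in Nlrp3-/- BMDMs. It was 11.3, 11.3 and 11.7 FPKM in wild-type control and 5.37, 5.73 and 6.35 FPKM in wild-type LPS+ATP libraries. Nlrp3-/- libraries had 17.7, 17.9 and 17.1 FPKM in control and 11.6, 10.2 and 11.2 FPKM with LPS+ATP. Stimulated Nlrp3-/- libraries overlapped wild-type control libraries. Stimulation changed Pros1 by -0.87 ± 0.06 on the log2 scale in wild-type (adjusted p = 9.153e-08 by limma) and by -0.63 ± 0.06 in Nlrp3-/- BMDMs (adjusted p = 1.768e-06 by limma), the latter being -0.36 after median-ratio scaling. The genotype difference was 0.58 in control (1.54-fold higher in Nlrp3-/-, adjusted p = 7.924e-06 by limma) and 0.82 with LPS+ATP (1.89-fold, adjusted p = 5.695e-07 by limma). The interaction of 0.23 (95% interval 0.05 to 0.42) did not pass (adjusted p = 0.0574 by limma), although it passed in 5 of 20 alternatives. It passed without wild-type LPS+ATP replicate 3 (0.29, adjusted p = 0.0186 by limma) and without Nlrp3-/- LPS+ATP replicate 2 (0.28, adjusted p = 0.0261 by limma). The others were a pseudocount of 0.1 (0.29, adjusted p = 0.0405 by limma), TPM (0.29, adjusted p = 0.0318 by limma) and a filter of 5 FPKM (0.23, adjusted p = 0.0493 by limma).

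The balance of the transcripts of the 2 TAM ligands therefore moved from Gas6 towards equal FPKM. Gas6 over Pros1 was 24.5 ± 0.791 (SD, n = 3) in wild-type control, 5.17 ± 0.187 (SD, n = 3) in Nlrp3-/- control, 1.97 ± 0.245 (SD, n = 3) in wild-type LPS+ATP and 0.936 ± 0.119 (SD, n = 3) in Nlrp3-/- LPS+ATP, as a ratio of FPKM within a library.

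Mfge8, the bridge from phosphatidylserine to integrins, was 39.3, 41.7 and 42.0 FPKM in wild-type control and 19.9, 20.6 and 20.0 FPKM in wild-type LPS+ATP libraries. In Nlrp3-/- libraries it was 39.5, 38.8 and 39.2 FPKM in control and 23.6, 24.1 and 23.6 FPKM with LPS+ATP. Control libraries of the genotypes overlapped, and stimulated libraries did not. The fall was 2.03-fold in wild-type (log2 fold change -0.99 ± 0.03, adjusted p = 1.372e-10 by limma) and 1.65-fold in Nlrp3-/- BMDMs (-0.70 ± 0.03, adjusted p = 3.891e-09 by limma), and the latter was -0.42 after median-ratio scaling. The interaction was 0.29 ± 0.05 (adjusted p = 0.000786 by limma). In control the genotype difference was -0.06 (95% interval -0.13 to 0.01, adjusted p = 0.126 by limma). It passed under upper-quartile (-0.13) and median-ratio (-0.21) scaling and without wild-type control replicate 1 (-0.09, adjusted p = 0.0239 by limma). With LPS+ATP, Mfge8 was 0.22 higher in Nlrp3-/- BMDMs (adjusted p = 0.000148 by limma), and median-ratio scaling took this to 0.04 (adjusted p = 0.341 by limma).

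Timd4, the receptor that binds phosphatidylserine directly, was low and rose with stimulation. It was 0.611, 0.452 and 0.384 FPKM in wild-type control libraries and 2.17, 1.88 and 2.03 FPKM with LPS+ATP. Nlrp3-/- libraries had 1.60, 1.48 and 1.61 FPKM in control and 2.34, 2.24 and 2.96 FPKM with LPS+ATP. Wild-type control libraries stood below all others, and the groups did not overlap. Stimulation gave log2 fold changes of 1.03 ± 0.08 in wild-type (adjusted p = 5.328e-07 by limma) and 0.45 ± 0.08 in Nlrp3-/- BMDMs (adjusted p = 0.00058 by limma), with an interaction of -0.58 ± 0.12 (adjusted p = 0.00408 by limma). The genotype difference was 0.79 in control (adjusted p = 1.304e-05 by limma) and 0.21 with LPS+ATP (95% interval 0.02 to 0.40, adjusted p = 0.0627 by limma). The last passed without Nlrp3-/- LPS+ATP replicate 2 (0.26, adjusted p = 0.0381 by limma). At these low values the pseudocount set the size of the change, since a pseudocount of 0.1 gave 1.89 for stimulation in wild-type BMDMs and 1.53 for genotype in control.

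Trem2 and Tyrobp, a receptor and its signalling adaptor, fell together with stimulation. Trem2 was 119, 129.7 and 126 FPKM in wild-type control and 16.6, 19.5 and 18.5 FPKM in wild-type LPS+ATP libraries, and in Nlrp3-/- libraries 88.5, 85.3 and 88.6 FPKM in control and 17.5, 17.9 and 17.8 FPKM with LPS+ATP. Tyrobp was 479, 552 and 576 FPKM in wild-type control and 175, 192 and 184 FPKM in wild-type LPS+ATP libraries, and in Nlrp3-/- libraries 435, 438 and 446 FPKM in control and 183, 174 and 170.4 FPKM with LPS+ATP. For both genes, control libraries of the genotypes did not overlap and stimulated libraries did.

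Trem2 fell 6.85-fold in wild-type (log2 fold change -2.71 ± 0.05, adjusted p = 1.935e-12 by limma) and 4.93-fold in Nlrp3-/- BMDMs (-2.24 ± 0.05, adjusted p = 1.217e-11 by limma). Its interaction was 0.47 ± 0.07 (adjusted p = 0.00079 by limma). Without stimulation Trem2 was 1.43-fold lower in Nlrp3-/- BMDMs (-0.51, adjusted p = 1.116e-05 by limma). With LPS+ATP the difference was -0.03 (95% interval -0.15 to 0.09, adjusted p = 0.676 by limma), and it was -0.15 under upper-quartile and -0.21 under median-ratio scaling, where it passed.

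The Tyrobp fall was 2.92-fold in wild-type (-1.54 ± 0.06, adjusted p = 8.034e-10 by limma) and 2.5-fold in Nlrp3-/- BMDMs (-1.32 ± 0.06, adjusted p = 4.189e-09 by limma). The genotype difference was -0.28 in control (1.22-fold lower in Nlrp3-/-, adjusted p = 0.00269 by limma), or -0.44 under median-ratio scaling. With LPS+ATP it was -0.06 (95% interval -0.20 to 0.07, adjusted p = 0.436 by limma), and it passed under upper-quartile (-0.18) and median-ratio (-0.25) scaling. The interaction of 0.22 (95% interval 0.03 to 0.41) did not pass (adjusted p = 0.0836 by limma) but did without wild-type control replicate 1, the lowest library of its group (0.30, adjusted p = 0.00356 by limma). Because Trem2 fell more than its adaptor, Trem2 over Tyrobp went from 0.233 ± 0.0148 (SD, n = 3) in wild-type control to 0.099 ± 0.00364 (SD, n = 3) with LPS+ATP, and from 0.199 ± 0.00444 (SD, n = 3) to 0.101 ± 0.00488 (SD, n = 3) in Nlrp3-/- BMDMs, as a ratio of FPKM.

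Between genotypes, Axl, Pros1 and Timd4 were higher and Gas6, Trem2 and Tyrobp lower in Nlrp3-/- control BMDMs, and 2 of the 8 tested genes, Mertk and Mfge8, did not pass. Of all tested genes, 33.3% passed as higher and 14.5% as lower. By the DEG criteria, 1 gene was higher (Axl) and 1 lower (Gas6), against 6.02% and 0.689% of all tested genes. With LPS+ATP, 3 genes passed as higher (Axl, Pros1 and Mfge8) and 2 as lower (Mertk and Gas6), against 35.9% and 12.6% of all tested genes. By limma 0 of the 8 were DEGs there, since none changed by 1 on the log2 scale at any p, against 4.48% higher and 0.57% lower of all tested genes, and Axl came nearest to that size at 0.93. The count of genes that passed was between 4 and 7 under the alternatives. The median log2 difference of the 8 was 0.01 in control and 0.09 with LPS+ATP, beside 0.09 and 0.11 for all tested genes. The interaction of genotype and stimulation passed for 6 of 8 genes, positive for Gas6, Trem2 and Mfge8 and negative for Axl, Timd4 and Mertk, against 27.7% of all tested genes in either direction. The genotype and stimulation comparisons share libraries, so their values are not independent of each other.

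Markers of other cell types also differed between genotypes, and their part in the values above was not tested. The 7 fibroblast markers, which include the collagen genes Col1a1 and Col1a2, summed to 162 to 168 FPKM in wild-type control, 191 to 193 FPKM in wild-type LPS+ATP, 1188 to 1205 FPKM in Nlrp3-/- control and 927 to 942 FPKM in Nlrp3-/- LPS+ATP. All 7 were higher in Nlrp3-/- BMDMs in control (6 DEGs) and with LPS+ATP (5 DEGs) by limma. With stimulation, 6 rose and 1 fell in wild-type BMDMs, and in Nlrp3-/- BMDMs Col3a1 (-0.87), Col1a1 (-0.36) and Col1a2 (-0.33) fell and Pdgfra (0.59), Pdgfrb (0.57) and Dcn (0.24) rose.

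The 7 neutrophil and granulocyte precursor markers summed to 321 to 356 FPKM in wild-type control, 109 to 126 FPKM in wild-type LPS+ATP, 1737 to 1789 FPKM in Nlrp3-/- control and 487 to 517 FPKM in Nlrp3-/- LPS+ATP. Of 6 that were tested, 6 were higher in Nlrp3-/- BMDMs in both conditions and 6 fell with stimulation in both genotypes. Macrophage markers (6 of 7, since Itgam stands in 2 rows and was left out) summed to 19783 to 20952 FPKM in wild-type control, 11116 to 11188 FPKM in wild-type LPS+ATP, 18866 to 19109.9 FPKM in Nlrp3-/- control and 10463 to 10712 FPKM in Nlrp3-/- LPS+ATP, most of it Lyz2. Among them, 2 rose and 4 fell with stimulation in wild-type BMDMs, 3 rose and 3 fell in Nlrp3-/- BMDMs, and 5 were lower in Nlrp3-/- control and 4 in Nlrp3-/- LPS+ATP.

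The 5 osteoclast markers summed to 61.7 to 68.2 FPKM in wild-type control, 122 to 125 FPKM in wild-type LPS+ATP, 95.8 to 101 FPKM in Nlrp3-/- control and 195 to 202 FPKM in Nlrp3-/- LPS+ATP. Of 4 that were tested, 3 rose with stimulation in each genotype, and 2 in control and 3 with LPS+ATP were higher in Nlrp3-/- BMDMs. Endothelial markers (4) summed to between 3.68 and 9.9 FPKM, dendritic cell markers (6) to between 0.83 and 5.62 FPKM and lymphocyte markers (6) to between 0.439 and 4.34 FPKM over all libraries. Cd209a was listed at 0 in all stimulated libraries, Cd3e in wild-type LPS+ATP and Nlrp3-/- control, and Cd3d in wild-type LPS+ATP. Of 3 endothelial markers that were tested, 2 were higher and 1 lower in Nlrp3-/- BMDMs in control, and 2 higher with LPS+ATP. Tie1, among the higher ones in control, reached 1 FPKM only in Nlrp3-/- control libraries (1.1 to 1.22 FPKM) and passed the filter through them alone. With stimulation, 1 rose and 2 fell in Nlrp3-/- BMDMs, whereas in wild-type BMDMs their log2 changes of -0.05 to 0.07 did not pass. The tested dendritic cell marker, Ccr7, was higher with stimulation and in Nlrp3-/- BMDMs in every comparison. The tested lymphocyte marker, Nkg7, was higher only in Nlrp3-/- control and fell there with stimulation. Nkg7 reached 1 FPKM only in the Nlrp3-/- control libraries (1.73 to 2.44 FPKM) and passed the filter through them alone. Its directions were therefore partly set by the filter.

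Other engulfment receptors moved in both directions with stimulation, more of them down than up. Of 17 further receptors, 12 were tested, of which 9 fell and 3 rose in wild-type and 9 fell and 2 rose in Nlrp3-/- BMDMs. Among all tested genes, 53.1% fell and 23.3% rose in wild-type and 53.8% fell and 20.6% rose in Nlrp3-/- BMDMs. The stimulation counts of this list, the markers above and the following lists stand beside these shares. The medians of the 12 were -1.14 and -0.98 on the log2 scale, beside -0.25 and -0.24 for all tested genes. The 9 falls stood under TPM, upper-quartile and median-ratio scaling. Cd300lb, an activating receptor for lipids of dying cells, went from 88.4 ± 2.03 to 3.67 ± 0.291 FPKM (SD, n = 3) in wild-type BMDMs (log2 fold change -4.26, adjusted p = 1.32e-14 by limma) and changed by -3.75 in Nlrp3-/- BMDMs. The inhibitory receptor Cd300a changed by -3.80 and -3.30. Itgb5, a subunit of an integrin that binds Mfge8, changed by -1.89 and -1.12 and was 1.06 higher in Nlrp3-/- BMDMs with LPS+ATP (adjusted p = 5.632e-09 by limma). Scarf1, a scavenger receptor for C1q on dying cells, rose by 1.94 and 1.62. Between genotypes, 3 were higher and 6 lower in control, and 2 higher and 8 lower with LPS+ATP. Stab2, among the higher ones in control, passed the filter only through the Nlrp3-/- control libraries (1.08 to 1.22 FPKM). Among all tested genes, 33.3% were higher and 14.5% lower in Nlrp3-/- control, and 35.9% higher and 12.6% lower with LPS+ATP. The genotype counts of this list, the markers above and the following lists stand beside these shares.

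Of 15 other bridging molecules and eat-me or do-not-eat-me signals, 13 were tested. In wild-type BMDMs 9 fell and 3 rose with stimulation, and in Nlrp3-/- BMDMs 8 fell and 2 rose, but under median-ratio scaling 5 and 6 fell, and 4 and 3 rose. Lgals3, a lectin that also serves as a Mertk ligand, went from 1249 ± 30.3 to 386 ± 2.01 FPKM (SD, n = 3) in wild-type BMDMs (-1.69, adjusted p = 4.861e-12 by limma) and changed by -1.88 in Nlrp3-/- BMDMs. C1qc and C1qb, subunits of complement C1q that coat dying cells, changed by -1.36 and -1.25 in wild-type BMDMs. Thbs1, a bridge to integrins and Cd36, and the chaperone Clu were 1.37 and 1.25 higher in Nlrp3-/- than in wild-type control BMDMs (adjusted p = 2.621e-11 and 8.513e-09 by limma). Between genotypes, 6 of the 13 were higher and 3 lower in control, and 8 higher and 3 lower with LPS+ATP. Edil3, among the higher ones in control, passed the filter only through the Nlrp3-/- control libraries (1.21 to 1.36 FPKM).

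Among genes of engulfment signalling, which act downstream of the receptors, the share that fell was near that of all tested genes. The share of lower DEGs was above that of all tested genes. All 14 of this list were tested, of which 8 fell in each genotype (53.1% and 53.8% of all tested genes), and 2 rose in wild-type and 4 in Nlrp3-/- BMDMs. By the DEG criteria, 5 of the 14 were lower in wild-type and 4 in Nlrp3-/- BMDMs, against 11.2% and 8.21% of all tested genes. In either genotype 0 were higher DEGs. The medians of the 14 were -0.65 and -0.75 on the log2 scale, beside -0.25 and -0.24 for all tested genes. Median-ratio scaling gave 7 and 6 falls and 4 rises in each. Vav3, an exchange factor for Rac, changed by -1.98 and -2.11, Dock2 by -1.51 and -1.63 and its partner Elmo1 by -1.47 and -1.40, in wild-type and Nlrp3-/- BMDMs in turn (all adjusted p at most 7.524e-10 by limma). In control BMDMs, the engulfment adaptor Gulp1 had 0.795 ± 0.156 FPKM in the wild-type libraries, against 4.63 ± 0.104 FPKM in the Nlrp3-/- libraries (SD, n = 3 each). The log2 difference was 1.65 (adjusted p = 2.949e-08 by limma), and Gulp1 fell by 1.99 in Nlrp3-/- BMDMs with stimulation. It reached 1 FPKM only in the Nlrp3-/- control libraries and passed the filter through them alone. Both differences were therefore partly set by the filter. Between genotypes, 2 were higher and 7 lower in control, and 4 higher and 5 lower with LPS+ATP.

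**Figure D4:**
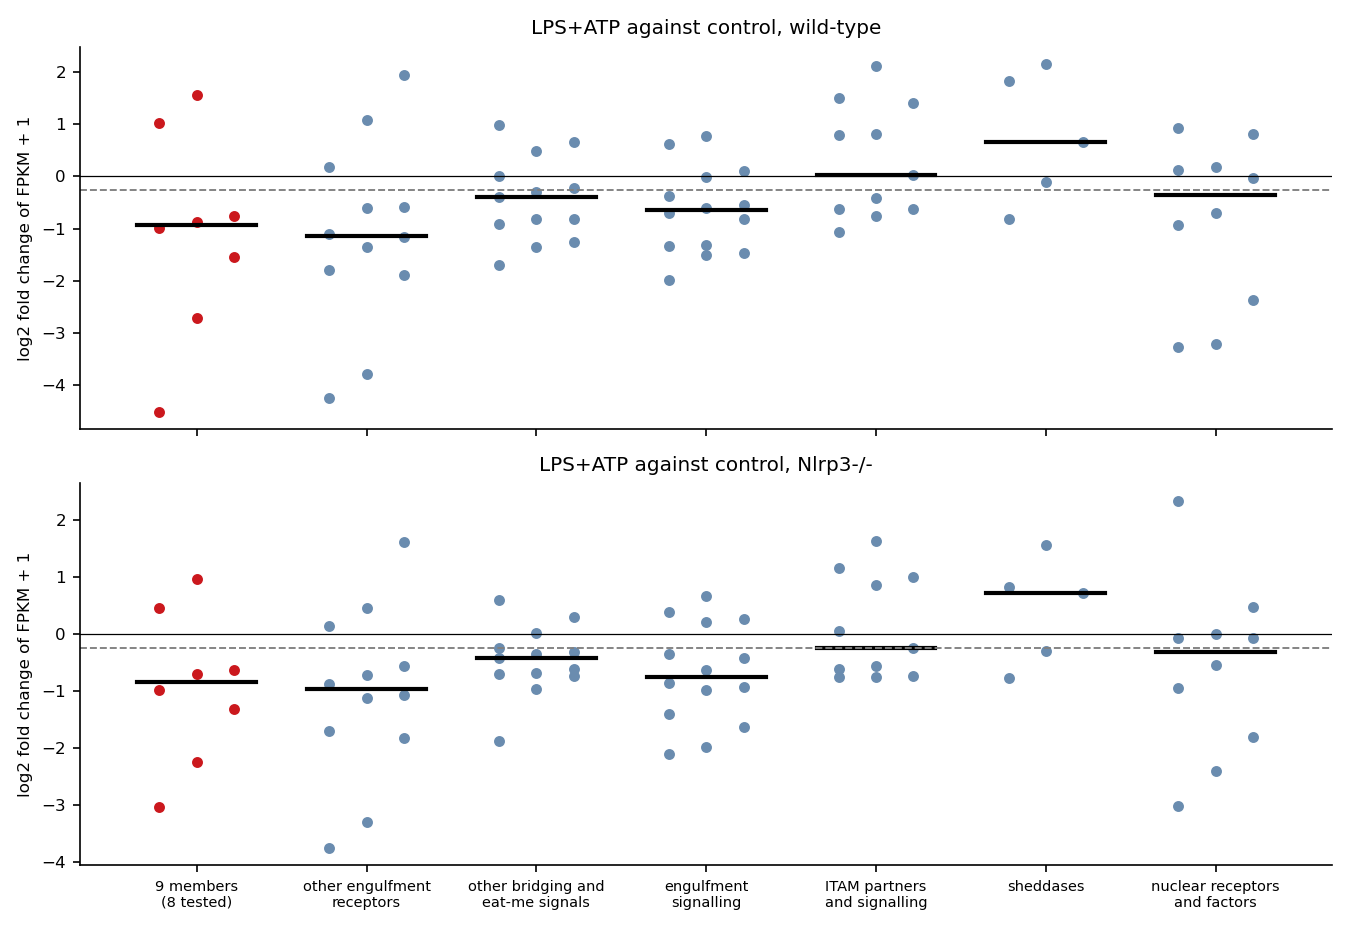
Log2 fold change of FPKM + 1 with LPS+ATP (vertical axes) in wild-type BMDMs above and Nlrp3-/- BMDMs below, for the 8 tested genes of the set in red and for the tested genes of 6 related lists in blue. Each point is a gene, black bars are medians and the dashed line is the median of all tested genes. The other engulfment receptors have medians of -1.14 and -0.98. The list labelled sheddases has the highest medians, 0.67 and 0.71, but its proteases moved apart, with Adam17 up and Adam10 down. It also holds Rhbdf1, Rhbdf2 and Timp3, which are not sheddases.

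Genes that work with Tyrobp moved in both directions. Of 12 partners and signalling genes of adaptors with an immunoreceptor tyrosine-based activation motif (ITAM), the motif through which Tyrobp signals, 11 were tested. With stimulation 5 rose and 5 fell in wild-type and 4 rose and 5 fell in Nlrp3-/- BMDMs. Trem3 and Trem1, receptors that use the same adaptor as Trem2, rose by 2.12 and 1.50 in wild-type (adjusted p = 4.385e-09 and 4.108e-09 by limma) and by 1.15 and 1.63 in Nlrp3-/- BMDMs. Trem3 was 1.61 higher in Nlrp3-/- control, and Trem1 1.13 higher in Nlrp3-/- LPS+ATP BMDMs. The signalling scaffold Lcp2 rose by 1.40 and 1.00, and Inpp5d, a phosphatase that restrains this pathway, changed by -1.07 in wild-type BMDMs. Between genotypes, 4 of the 11 were higher and 4 lower in control, and 4 higher and 6 lower with LPS+ATP.

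Adam17 and Adam10 are proteases that shed Mertk, Axl and Trem2 from the cell surface. Their list also holds Rhbdf1, Rhbdf2 and Timp3, and all 5 genes were tested. With stimulation 3 rose and 1 fell in wild-type BMDMs, and 3 rose and 2 fell in Nlrp3-/- BMDMs. Adam17 rose by 0.67 and 0.71 (adjusted p = 0.00435 and 0.00318 by limma) and Adam10 changed by -0.82 and -0.78. Rhbdf2, which carries Adam17 to the surface, rose by 1.83 and 1.56, and Timp3, an inhibitor of Adam17, rose by 2.15 in wild-type BMDMs and was 2.56 higher in Nlrp3-/- than in wild-type control (adjusted p = 2.385e-12 by limma). Rhbdf1 was 1.20 higher in Nlrp3-/- control and 1.01 higher in Nlrp3-/- LPS+ATP BMDMs. Between genotypes, 2 of the 5 were higher and 0 lower in control, and 2 higher and 1 lower with LPS+ATP.

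Of 10 nuclear receptors and macrophage transcription factors known to control engulfment genes, 3 rose and 5 fell in wild-type and 2 rose and 5 fell in Nlrp3-/- BMDMs. The shares that fell were near those of all tested genes (53.1% and 53.8% lower). By the DEG criteria, 3 of the 10 were lower in each genotype, against 11.2% and 8.21% of all tested genes. In wild-type BMDMs 0 were higher DEGs, and in Nlrp3-/- BMDMs 1 was, against 8.25% and 6.64%. The medians were -0.37 and -0.31, beside -0.25 and -0.24 for all tested genes. Pparg, a lipid-sensing nuclear receptor, went from 11.1 ± 0.333 to 0.303 ± 0.0979 FPKM (SD, n = 3) in wild-type BMDMs (-3.22, adjusted p = 4.622e-12 by limma) and changed by -3.02 in Nlrp3-/- BMDMs. Maf, a transcription factor of macrophages, changed by -2.38 and -1.80. Nr4a1 rose by 2.34 in Nlrp3-/- BMDMs and was 1.54 higher there than in wild-type BMDMs with LPS+ATP (adjusted p = 1.34e-07 by limma). Between genotypes, 3 were higher and 1 lower in control, and 6 higher and 0 lower with LPS+ATP, or 5 higher under median-ratio scaling.

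Across the 12 libraries, Trem2 and Tyrobp had the closest profiles within the set (Pearson's r of log2 values 0.997), followed by Gas6 and Trem2 (0.988) and by Gas6 and Tyrobp (0.984). Mfge8 and Mertk came next, each with Trem2 and with Tyrobp (0.966 to 0.977). For Axl and Timd4, the pair that rose, r was 0.956, whereas Axl and Gas6 had an r of -0.859 and Axl and Pros1 an r of -0.066. These are descriptions of 12 libraries that fall into 4 groups, so they rest mostly on the group means. Among all tested genes, the profile most like that of Gas6 was Hexa, which encodes a lysosomal hexosaminidase subunit (r = 0.9995), with mean levels of 506, 172, 336 and 167 FPKM in wild-type BMDMs without and with LPS+ATP and Nlrp3-/- BMDMs without and with it. The next was Ehd4 (0.9991). Axl was closest to Tnc, the matrix protein tenascin C (0.9986), with means of 7.13, 40.3, 39.5 and 126 FPKM in the same order of groups, and then to Ext1 (0.9964).

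Trem2 was closest to Rab3il1 (0.9988) and Manba, a lysosomal mannosidase (0.9986), and Tyrobp to Trem2 itself and Coro1c (0.9968). The 2 genes nearest to Mertk were Bin2 (0.9947) and Slc40a1, the iron exporter (0.9944). Pros1 was nearest to Hmgn1 (0.9968) and Eif3e (0.9949), Mfge8 to Rpl10 (0.9985), and Timd4 to Gspt1 (0.9858) and Filip1l (0.9840).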

How the data were processed

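TruSeq libraries of total RNA, 3 per group, were sequenced from control and stimulated BMDMs of both genotypes. The authors deposited FPKM per gene and library. The submitters' processing notes name GRCm39 and DESeq2 1.24.0, and the aligner and annotation are not given in the sources used here. FPKM holds no read counts, so depth is unknown in reads and no count test was run, and 0 per-library columns were left unused. The 9 genes and all lists were chosen with earlier results of these data known.

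A gene was tested if it had 1 FPKM or more in 3 or more of the 12 libraries, on log2(FPKM + 1), a pseudocount of 1, with limma 3.58.1 (R 4.3.3), a trend in the variance and 1 mean per group. A gene that reached 1 FPKM in only 1 genotype, condition or group passed through it alone. Part of its difference was then set by the filter. The test was run on simulated data first. Besides the 9 genes, up to 4 DEGs with the largest change were named per list, the 2 most similar genes per tested gene, Nlrp3 and cell markers, and 2 of the genes this rule named are not reported here. Nnt, Xist, Adam17, Adam10 and the single tested markers Ccr7 and Nkg7 were named after their values were seen. Promoter windows came from RefSeq on GRCm38.p6 and exon overlaps from GENCODE on GRCm38, and the table itself holds no coordinates. By blastn 2.17.0+ the 9 genes had 0 near copies. Alternatives were a pseudocount of 0.1, other filters, TPM, upper-quartile and median-ratio scaling, no variance trend, the compared groups alone, a replicate block and leaving out each library. Python 3.11.15 with pandas 2.3.3, numpy 2.4.6 and matplotlib 3.10.9 made the tables and figures.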

Additional observations from a re-analysis of the deposited data

Results flagged for a closer look

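The change with LPS+ATP differed between wild-type and Nlrp3-/- BMDMs for 6 of the 8 tested genes, each by the interaction term of the limma fit on log2(FPKM + 1). The difference, Nlrp3-/- change minus wild-type change, was 1.47 for Gas6, 0.47 for Trem2 and 0.29 for Mfge8, whose falls were smaller in Nlrp3-/- BMDMs. It was -0.59 for Axl and -0.58 for Timd4, whose rises were smaller, and -0.24 for Mertk, whose fall was larger. Groups of 3 libraries were not tested for outlying values.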

How the results depend on the processing

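Each alternative changed 1 choice, except that 1 added to TPM is also a smaller pseudocount in FPKM than 1 added to FPKM. Of 827 values of single genes under the alternatives, 798 kept their direction and their side of the threshold, 14 became and 13 were no longer significant, and 2 turned in sign. Those were Mertk between genotypes in control, -0.08 under median-ratio scaling (adjusted p = 0.153 by limma), and Trem2 between genotypes with LPS+ATP, which ran from -0.09 to 0.02 with 1 library left out and was above 0 without wild-type LPS+ATP replicate 2 (adjusted p = 0.798 by limma). Neither passed in the main analysis, and the cause was not tested. For a comparison of 2 groups, leaving out a library of another group cannot move the log2 difference, only its p-value. The direction of part of the 798 was therefore fixed beforehand. A pseudocount of 0.1 gave 2 interactions of DEG size among the 8 genes in place of 1, and a log2 ratio of Trem2 over Tyrobp of -3.33 in place of -3.27 in wild-type LPS+ATP. The replicate numbers did not pair the libraries, since 0 of 12 correlations of same-numbered libraries were above 0.1 and 3 libraries correlated best with their own number. A fit with the replicate block gave 8 genes past the threshold for stimulation in each genotype, as without it, 6 for genotype in control and 5 for genotype with LPS+ATP. Over all tested genes, the pseudocount of 0.1 gave 3702 (wild-type) and 2847 (Nlrp3-/-) DEGs of stimulation and 1428 (control) and 1406 (LPS+ATP) DEGs of genotype, in place of 2452, 1874, 847 and 637, and 634 interactions of that size in place of 271. TPM, with its smaller effective pseudocount, gave 1285 and 1175 for genotype and 501 interactions, whereas upper-quartile and median-ratio scaling gave fewer genotype DEGs (776 and 574, and 725 and 571). At a filter of 5 FPKM, which tests fewer genes, there were 515 for genotype in control. Timd4 could not be tested at a filter of 5 FPKM, and Tyro3 only without a filter. Unknown depth and 3 libraries per group limit the low genes Timd4 and Tyro3 most.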
